A study of Mus musculus with 13 samples.

Results

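Oxidative phosphorylation is carried out by 5 multisubunit complexes of the inner mitochondrial membrane, most of whose subunits are encoded in the nucleus. The genes described here were the rows of the deposited count table whose symbols named such subunits, namely those beginning with Nduf and a, b, s, v or c followed by a number (complex I), Sdha to Sdhd (complex II), those beginning with Uqcr (complex III), those beginning with Cox4 to Cox8 (complex IV) and those beginning with Atp5 (complex V). Of 24079 rows, 84 matched, and 79 of them reached a CPM (read counts scaled to a common library total) of at least 1 in 3 or more of the 6 RNA-seq samples and were kept as members. They comprised 36 genes of complex I, 4 of complex II, 8 of complex III, 14 of complex IV and 17 of complex V.

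The cells were CGR8, a line of mouse embryonic stem cells grown without feeder cells on gelatin in medium with serum and leukaemia inhibitory factor. The controls were 3 samples that received 0.5% DMSO for 48 h, and 3 others received 10 µM PhenDC3, a ligand that binds G-quadruplexes (4-stranded structures of G-rich DNA or RNA), in the same 0.5% DMSO for 48 h. The labels do not say whether the 3 samples of a group came from separate cultures, so p-values measure the spread between these samples, which may be technical. The study also mapped replication origins in the same cell line by sequencing short nascent strands (SNS-seq), here from 3 control and 2 PhenDC3 samples.

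Electrons from NADH enter the respiratory chain at complex I and those from succinate at complex II, which is also an enzyme of the tricarboxylic acid cycle. They pass through ubiquinone, complex III and cytochrome c to complex IV, which reduces oxygen, and the proton gradient built on the way drives ATP synthesis by complex V. Embryonic stem cells in culture are known for a high rate of glycolysis beside a working respiratory chain.

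The libraries held 22232014 to 29486502 counts. All 10 embryonic stem cell markers examined lay above 10 CPM in the controls, with a summed level of 7775 to 8494 CPM in the controls and 9293 to 10340 CPM after PhenDC3, and 4 of them rose and 3 fell. The summed markers of trophectoderm were 64.7 to 81.0 CPM in the controls and 136 to 172 CPM after PhenDC3 (3 of 5 tested rose, and Gata3, one of them, had a mean of 0.553 CPM in the controls). Those of endoderm were 42.5 to 97.3 and 83.1 to 139.9 CPM, sums that overlapped between the groups (4 of 6 rose). Neural markers (87.1 to 94.3 and 93.0 to 115.5 CPM, with Nes higher and Pax6 lower), mesoderm markers (3.33 to 5.56 and 4.72 to 6.19 CPM) and fibroblast markers (5.88 to 6.84 and 3.22 to 5.92 CPM, with Thy1 lower and 1 of 6 at 0 in all samples) overlapped between the groups in their sums. The part of these differences in the results below was not tested, and in bulk RNA a smaller number of cells of a type and less RNA per cell cannot be told apart.

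The transcripts of nuclear-encoded oxidative phosphorylation subunits were on the whole lower after PhenDC3. Of the 79 members, 39 fell, 1 rose (Cox6b2) and 39 did not pass the test (edgeR's quasi-likelihood test, Benjamini-Hochberg adjusted p at most 0.05 over the 13972 genes tested). The estimate was below 0 for 73 of the 79, and the median log2 fold change was -0.36, against 0.0096 over all genes tested. Across all genes tested, 18.7% fell and 18% rose by the same test. Ndufa4l2 and Cox4i2 passed the minimum of 1 CPM only through the controls and therefore had to be lower after PhenDC3. Without them, 37 of 77 members fell and the median was -0.35.

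All 3 PhenDC3 samples lay below all 3 controls for 50 members and above all 3 for 1, where 25.6% and 25% of all genes tested did so. Of the 39 members that did not pass the test, 11 belonged to the 50. The count of lower members was 17 without PhenDC3 replicate 1 and also 17 without PhenDC3 replicate 3, and it was 15 when libraries were scaled by their totals alone. In these 3 fits the share of all genes called lower was 11.4%, 13.2% and 12.1%, so that calls over all genes were fewer too. The last scaling moved the median of all genes to 0.16, and the members then stood 0.37 below it, as they did with the scaling used throughout. Under each of 12 other settings, 13 of the 37 kept a lower call, among them 7 of complex I, 2 each of complexes III and V and 1 each of complexes II and IV, and Cox6b2 kept a higher call.

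**Figure D1:**
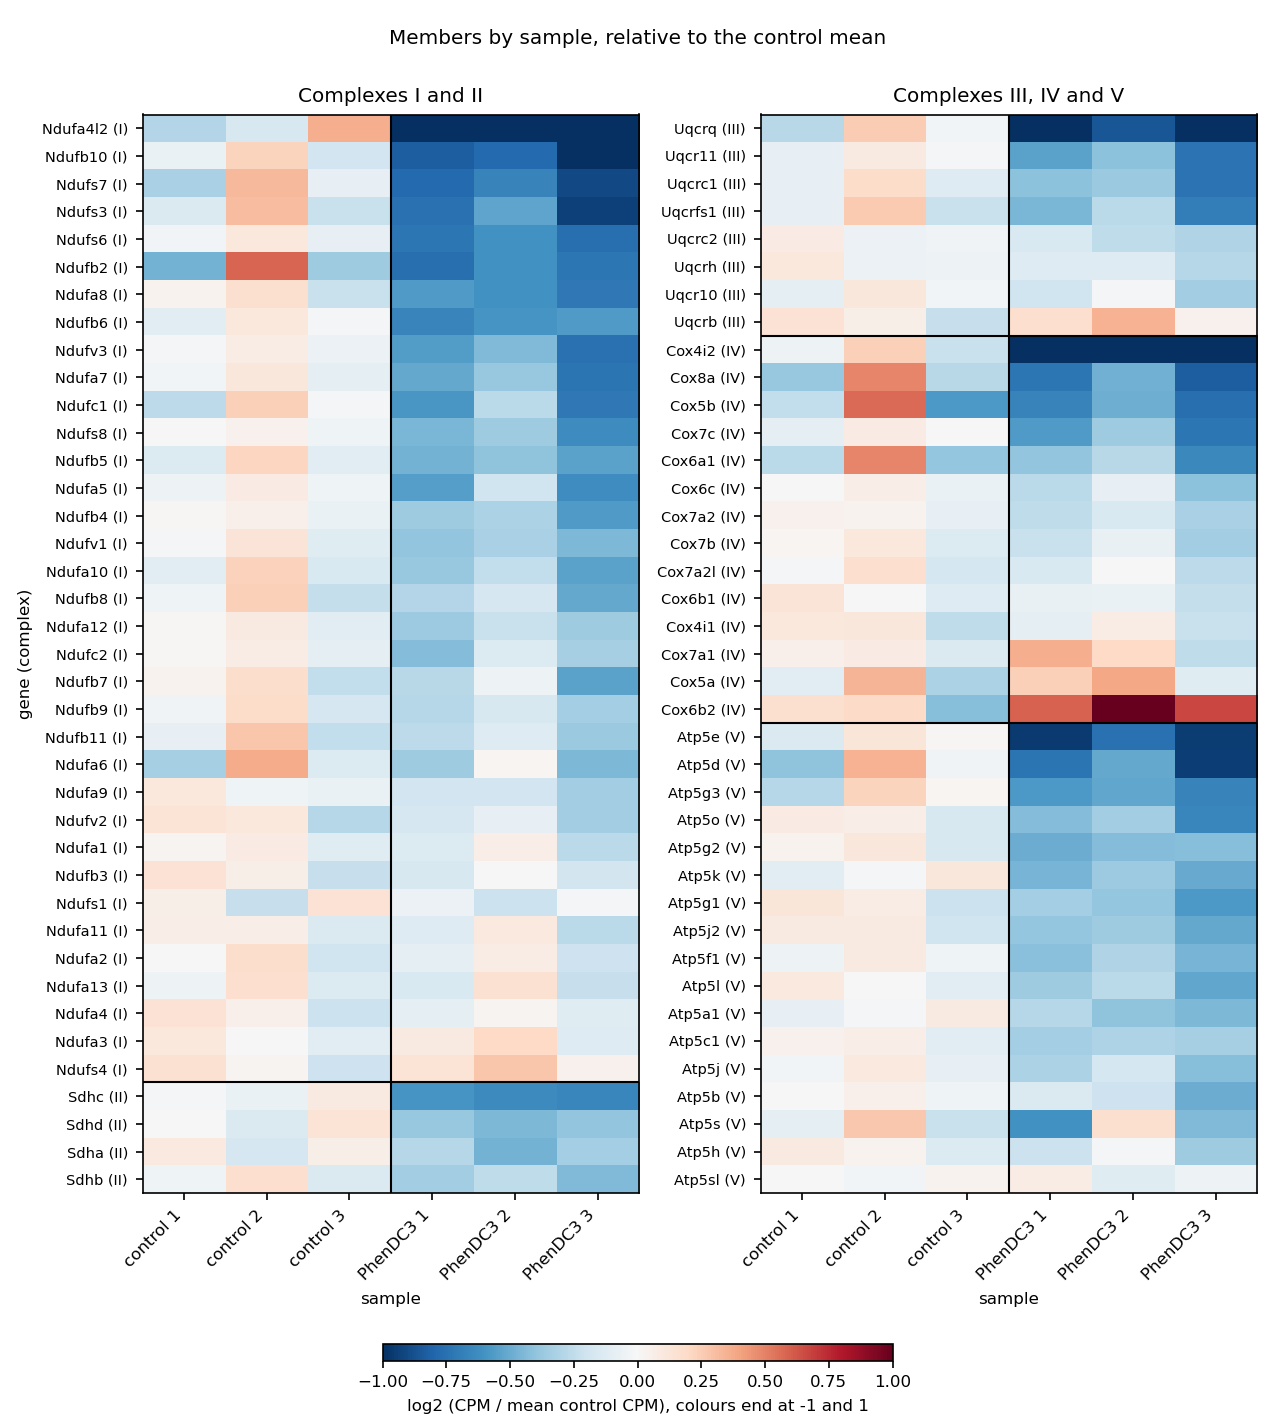
Level of 78 of the 79 members in each of the 6 samples, as log2 of the scaled CPM over the mean of the 3 controls (colour, blue lower and red higher, ending at -1 and 1); rows are genes by complex and columns are samples. The PhenDC3 columns are blue for most genes of complexes I, II, III and V, while Cox6b2 is red, and control replicate 2 is redder than the other controls for Cox5b, Cox8a, Cox6a1 and Ndufb2.

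Transcript length moved with the result. The summed exon length of the members had a median of 772 bases, against 3063.5 bases over all genes tested, and short genes outside the list were also lower after PhenDC3. Among other genes with at least 30 CPM in the controls, the median log2 fold change was -0.33 for 156 genes of up to 750 bases, -0.37 for 165 genes of over 750 to 1000 bases, -0.34 for 460 genes of over 1000 to 1500 bases, -0.20 for 1727 genes of over 1500 to 3000 bases and 0.06 for 3151 longer genes. The members with at least 30 CPM in the same length ranges had medians of -0.34 (34 genes), -0.47 (11), -0.38 (13) and -0.32 (16), and no member was longer than 3000 bases. Of these members, 44.1% of those of up to 750 bases were called lower, against 45.5% of the other genes. In the 3 longer ranges it was 63.6% against 44.2%, 61.5% against 47.8% and 43.8% against 32%. Without the floor of 30 CPM, 44.4%, 61.5%, 61.5% and 41.2% of the members in the 4 ranges were called lower, against 29.8%, 31.2%, 32% and 22.4% of the other genes. With the floor, members of up to 750 bases stood near other genes of their length, and the differences in the 3 longer ranges rest on 11 to 16 members each. The part of length in the members' change was not tested.

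**Figure D2:**
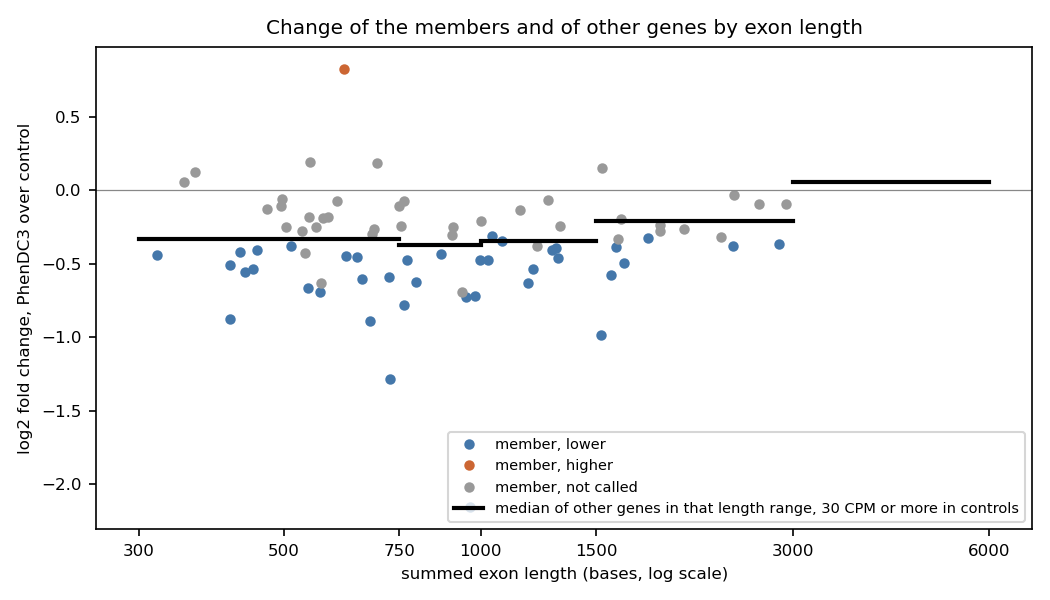
Log2 fold change (PhenDC3 over control, vertical axis) of the 79 members against summed exon length (horizontal axis, log scale), coloured by call, with black lines for the median of other genes of at least 30 CPM in the controls in each length range; the last line stands for all genes over 3000 bases, and members under 30 CPM are drawn too. The lines run from -0.33 to -0.37 up to 1500 bases and lie at 0.06 over 3000 bases, where there is no member.

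Promoter sequences of a member of each complex are given first as context for the genes described below: Ndufs3, Sdhd, Uqcr11 and Atp5e, which fell, and Cox6b2, which rose, chosen after their values and letters were seen. Each is the 250 bases before the RefSeq start site (GRCm38.p6), all of them here on the minus strand and written 5′ to 3′ along the gene. Capitals mark the letters CCGGAAG or their complement CTTCCGG, the core recognised by ETS factors such as GABPA, and in Ndufs3 also the stretch that matched a G-quadruplex pattern on the opposite strand. Ndufs3 lies at chr2:90904722-90904971, Sdhd at chr9:50603850-50604099, Uqcr11 at chr10:80406822-80407071, Cox6b2 at chr7:4753095-4753344 and Atp5e at chr2:174464102-174464351.
Ndufs3: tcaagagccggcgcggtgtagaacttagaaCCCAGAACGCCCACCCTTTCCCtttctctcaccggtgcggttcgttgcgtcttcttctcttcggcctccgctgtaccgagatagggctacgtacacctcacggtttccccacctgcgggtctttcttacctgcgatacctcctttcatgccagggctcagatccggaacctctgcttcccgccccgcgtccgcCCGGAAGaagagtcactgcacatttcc
Sdhd: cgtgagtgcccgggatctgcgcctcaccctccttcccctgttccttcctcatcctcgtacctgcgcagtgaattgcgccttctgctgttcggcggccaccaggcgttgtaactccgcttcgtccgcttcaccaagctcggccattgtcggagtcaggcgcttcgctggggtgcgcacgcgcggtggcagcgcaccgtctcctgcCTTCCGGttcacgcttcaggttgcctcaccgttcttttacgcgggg
Uqcr11: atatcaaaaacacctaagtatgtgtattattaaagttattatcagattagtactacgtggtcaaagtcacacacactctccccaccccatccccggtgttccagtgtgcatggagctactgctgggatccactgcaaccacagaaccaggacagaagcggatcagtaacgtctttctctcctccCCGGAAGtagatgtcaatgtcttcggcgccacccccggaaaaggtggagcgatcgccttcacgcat
Cox6b2: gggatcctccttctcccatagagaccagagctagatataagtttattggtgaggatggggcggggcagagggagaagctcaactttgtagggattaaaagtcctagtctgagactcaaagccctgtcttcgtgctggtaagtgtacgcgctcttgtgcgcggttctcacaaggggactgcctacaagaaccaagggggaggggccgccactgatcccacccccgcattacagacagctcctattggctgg
Atp5e: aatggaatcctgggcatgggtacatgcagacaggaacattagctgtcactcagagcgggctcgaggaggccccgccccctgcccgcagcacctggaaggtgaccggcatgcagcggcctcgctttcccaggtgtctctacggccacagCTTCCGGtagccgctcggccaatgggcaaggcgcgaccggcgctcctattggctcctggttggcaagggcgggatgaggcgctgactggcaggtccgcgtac

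The 5 printed promoters differ in what the letters searched find in them: 4 hold the ETS core, Ndufs3 also holds the G-quadruplex pattern, and Cox6b2 holds none of the motifs searched. Because the 5 were chosen with their letters seen, this contrast does not describe the members. Ndufb10, Sdha and Cox7c, which fell, also held none of the motifs searched. In Uqcr11 the longer window counted next also holds the NRF1 letters, which reach past the printed bases. RefSeq promoters of 300 bases (250 before to 50 after the start) were matched for 66 members. On either strand, the ETS core CCGGAAG was present in 16 of the 66 (24.2%), against 19.1% of 11044 promoters of genes tested and 9.93% of all 27025 promoters. The NRF1 letters GCGCATGCG, of a factor known to act on many respiratory genes, were present in 8 (12.1%), against 3.97% and 1.95%. The YY1 letters AAGATGGCG were also present in 8 (12.1%), against 3.33% and 1.64%. TATAAA was present in 5 (7.58%), against 8.69% and 15.7%.

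The G-quadruplex pattern, 4 runs of at least 3 G with loops of 1 to 7 bases, was present on either strand in 15 member promoters (22.7%), against 31.9% of promoters of genes tested and 20.4% of all promoters. It lay in 6 of 34 promoters of members that fell and in 9 of 31 of members that did not pass the test. For NRF1 the same counts were 6 of 34 and 2 of 31, for the ETS core 10 of 34 and 6 of 31, for YY1 4 of 34 and 4 of 31 and for TATAAA 3 of 34 and 2 of 31. These matches are a description of the letters in these windows.

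Complex I takes electrons from NADH. Of its 36 members, 16 fell (44.4%), none rose and the median log2 fold change was -0.32. Of all genes tested, 18.7% fell. Among other genes with at least 30 CPM in the controls, 44.2% to 47.8% fell in the length ranges of up to 1500 bases. In the range of over 1500 to 3000 bases, 32% did. These shares also stand beside the counts of the parts of this complex and of the complexes below. The 7 members that carry its redox centres and ubiquinone site (core subunits) had a median of -0.39 with 4 lower calls, and the 28 accessory subunits had a median of -0.30 with 11 lower calls. The remaining member is Ndufa4l2.

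Ndufb10, an accessory subunit of the membrane arm, stood at 86.9, 106 and 79.9 CPM in the controls and at 51.5, 53.1 and 42.6 CPM after PhenDC3. Every PhenDC3 sample was below every control, and the log2 fold change was -0.89 ± 0.14 (SE, n = 3 a group, edgeR adjusted p = 0.0017). Ndufs7, a core subunit with an iron-sulfur cluster next to the ubiquinone site, stood at 44.3, 69.3 and 52.4 CPM and then at 32.3, 34.8 and 29.6 CPM. The groups did not overlap, control replicate 2 was the highest sample, and the log2 fold change was -0.78 ± 0.17 (adjusted p = 0.0068).

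Ndufs3, another core subunit of the peripheral arm, stood at 58.7, 80.7 and 55.7 CPM and then at 38.7, 45.2 and 34.0 CPM. Its groups also lay apart, with a log2 fold change of -0.73 ± 0.17 (adjusted p = 0.0096). Ndufs8, which carries iron-sulfur clusters, was nearly level among the controls at 64.4, 66.3 and 62.6 CPM and stood at 47.0, 50.3 and 41.7 CPM after PhenDC3 (log2 fold change -0.48 ± 0.11, adjusted p = 0.0095).

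Ndufv1, which binds NADH and flavin, fell from a mean of 180.2 ± 15.5 to 137.8 ± 6.0 CPM (SD, n = 3 a group, log2 fold change -0.39, adjusted p = 0.023). The core subunits Ndufv2 (-0.20 ± 0.14, adjusted p = 0.30) and Ndufs1 (-0.10 ± 0.13, adjusted p = 0.58) did not pass the test. Ndufs1, the largest core subunit, stood at 164, 134 and 174 CPM in the controls and at 151, 136 and 155 CPM after PhenDC3, so its groups overlapped. Ndufa4, first assigned to complex I and later found with complex IV, stood at 307, 287 and 239 CPM and at 262, 283 and 255 CPM, with overlap and an estimate of -0.06 ± 0.12 (adjusted p = 0.73). The core and accessory genes thus ran from lower calls to no detectable change within the same complex.

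Complex II, succinate dehydrogenase, was the complex whose 4 members all fell, where 18.7% of all genes tested did. The median log2 fold change of the 4 was -0.39. Sdhc, a membrane anchor that holds the haem and ubiquinone site, stood at 146, 141 and 158 CPM in the controls and at 98.3, 95.3 and 94.0 CPM after PhenDC3. The lowest control was well above the highest PhenDC3 sample, and the log2 fold change was -0.63 ± 0.10 (adjusted p = 0.0018). Sdhd, the other anchor, stood at 191, 172 and 209 CPM and then at 146, 140 and 145 CPM (-0.41 ± 0.11, adjusted p = 0.019).

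Sdha, the flavoprotein that oxidises succinate, stood at 292, 243 and 284 CPM and then at 224, 197 and 216 CPM (-0.36 ± 0.12, adjusted p = 0.038). Sdhb, the iron-sulfur subunit, stood at 112, 130 and 104 CPM and then at 90.6, 96.6 and 84.9 CPM (-0.35 ± 0.12, adjusted p = 0.047). In both genes the groups did not overlap. Of the 4, only Sdhc kept its call in all 12 other settings, and 1 member of the complex was called without control replicate 1 and also without PhenDC3 replicate 1, 2 or 3.

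Complex III, the cytochrome bc1 complex, had 4 lower calls among 8 members (50%, against 18.7% of all genes tested) and a median of -0.35. Uqcrq, a small subunit next to cytochrome b, stood at 138, 200 and 164 CPM in the controls and at 82.6, 92.4 and 78.8 CPM after PhenDC3. The groups were well apart, and its log2 fold change of -0.98 ± 0.15 (adjusted p = 0.0013) was the lowest among the 77 members whose place did not rest on the controls. Uqcr11, another small subunit, stood at 153, 172 and 160 CPM and then at 111, 122 and 97.1 CPM (-0.55 ± 0.12, adjusted p = 0.0069).

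Of the core subunits, Uqcrc1, a matrix-side scaffold protein, fell from 297 ± 35.6 to 211 ± 28.6 CPM (SD, n = 3 a group, log2 fold change -0.50 ± 0.14, adjusted p = 0.022). Uqcrfs1, the Rieske iron-sulfur protein, fell from 103.3 ± 18.3 to 75.0 ± 10.96 CPM (-0.46 ± 0.16, adjusted p = 0.046). Uqcrh, the hinge protein that assists cytochrome c docking, had 310, 277 and 279 CPM against 264, 264 and 237 CPM, which did not overlap but did not pass the test (-0.18 ± 0.11, adjusted p = 0.22).

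Complex IV, cytochrome c oxidase, had 3 lower calls among 14 members (21.4%), 2 of them without Cox4i2, and the only higher call, with a median of -0.23. This share was near the 18.7% of all genes tested. All members of the complex were shorter than 1500 bases. Among other genes up to that length with at least 30 CPM in the controls, 44.2% to 47.8% fell, a larger share. The part of length in the differences between complexes was not tested. Among the 11 members outside the tissue isoforms, Cox8a and Cox7c fell. Cox8a, a small membrane subunit, stood at 110, 200 and 117 CPM in the controls and at 86.4, 102 and 80.3 CPM after PhenDC3 (-0.67 ± 0.22, adjusted p = 0.042). Its groups did not overlap, and control replicate 2 stood far above the other controls. Without control replicate 2 the log2 fold change was -0.35 and the adjusted p was 0.078. Without PhenDC3 replicate 1 or 3 the estimate stayed at -0.64 and -0.59, with an adjusted p of 0.12 in both. The same library was the highest for Cox5b, which did not pass the test.

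Cox7c, another of the small subunits, stood at 139, 157 and 149 CPM and then at 100, 116 and 89.7 CPM (-0.54 ± 0.12, adjusted p = 0.0092), with no overlap. Cox4i1, the common form of a subunit through which ATP regulates the enzyme, stood at 581, 585 and 454 CPM and at 506, 568 and 464 CPM, with overlap (-0.07 ± 0.14, adjusted p = 0.70). Cox5a, a matrix-side subunit, stood at 130, 177 and 112 CPM and at 165, 182 and 129 CPM, also with overlap (0.19 ± 0.19, adjusted p = 0.47). Cox6a1 (-0.43 ± 0.22, adjusted p = 0.16), Cox7a2 (-0.24 ± 0.11, adjusted p = 0.10) and Cox6b1 (-0.13 ± 0.11, adjusted p = 0.42) did not pass the test either, and without control replicate 2 the estimate of Cox6a1 was -0.11.

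Complex V, ATP synthase, had 12 lower calls among 17 members (70.6%, against 18.7% of all genes tested) and a median of -0.39. The estimates of all 17 members of the complex were below 0. With library totals alone, 2 of its members were called lower. Without PhenDC3 replicate 1 it was also 2, and without PhenDC3 replicate 3 it was 3. In these fits 12.1%, 11.4% and 13.2% of all genes were called lower, and the medians of the complex were -0.24, -0.42 and -0.36. In the main fit, 4 of 5 members of the catalytic F1 part fell. Atp5e, the epsilon subunit of the central stalk, stood at 139, 167 and 155 CPM in the controls and at 79.4, 91.8 and 79.6 CPM after PhenDC3. The groups were far apart, and the log2 fold change was -0.88 ± 0.12 (adjusted p = 0.00076). Atp5d, the delta subunit next to it in the stalk, stood at 117, 196 and 151 CPM and then at 93.0, 108 and 80.3 CPM (-0.72 ± 0.19, adjusted p = 0.018).

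Atp5b, the catalytic beta subunit, had a mean of 2002 ± 65.4 CPM in the controls and 1656 ± 209 CPM after PhenDC3 (SD, n = 3 a group). All 3 PhenDC3 samples were below all controls, but the log2 fold change of -0.27 ± 0.12 did not pass the test (adjusted p = 0.10). Atp5a1, its partner alpha subunit, fell from 1370 ± 81.2 to 1054 ± 61.7 CPM (-0.38 ± 0.11, adjusted p = 0.021). Atp5c1, the gamma subunit that turns within the F1 head, fell from 350.4 ± 23.1 to 279.4 ± 3.85 CPM (-0.33 ± 0.10, adjusted p = 0.036).

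The 3 genes for the c subunit, whose ring carries the protons, all fell. They encode one mature protein behind different import sequences. Atp5g3 stood at 332, 473 and 410 CPM and then at 272, 282 and 255 CPM (-0.59 ± 0.14, adjusted p = 0.011). Atp5g2 (-0.45 ± 0.11, adjusted p = 0.013) and Atp5g1 (-0.43 ± 0.13, adjusted p = 0.028) had smaller estimates, and the groups of all 3 genes did not overlap.

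In the peripheral stalk, which holds the F1 head still, 2 of 4 fell, among them Atp5o (oligomycin sensitivity protein), which went from 331, 327 and 280 CPM to 231, 246 and 198 CPM (-0.47 ± 0.13, adjusted p = 0.017). All 3 small membrane subunits fell, by 0.38 to 0.44 on the log2 scale. The 2 other members, Atp5s and Atp5sl, which despite their symbols are not standing subunits of the enzyme, did not pass the test (-0.26 and -0.03).

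**Figure D3:**
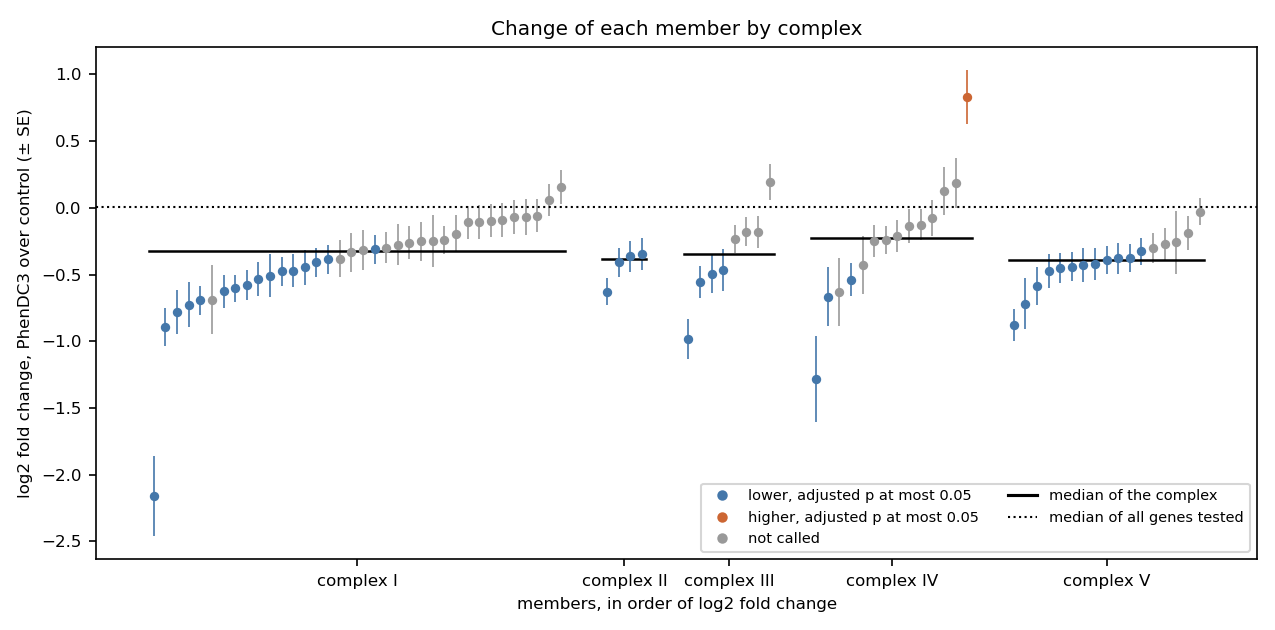
Log2 fold change of each member (PhenDC3 over control, points, with bars of 1 SE) by complex, in order of the estimate, coloured by call, with the median of each complex (black line) and of all genes tested (dotted line, 0.0096). Complex IV has the median nearest to 0 (-0.23) and the only higher call, and all points of complexes II and V lie below 0.

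Summed over the members, complex II stood at 740, 686 and 755 CPM in the controls and at 560, 528 and 540 CPM after PhenDC3. Complex V stood at 6749, 7189 and 6701 CPM and then at 5544, 5550 and 4862 CPM, and complex III at 1596, 1725 and 1528 CPM and then at 1326, 1401 and 1171 CPM. In these 3 complexes, and in complex I (3603, 3955 and 3314 against 2905, 3169 and 2694 CPM), every PhenDC3 sum was below every control sum. The sums of complex IV overlapped, at 2682, 3018 and 2370 CPM in the controls and 2342, 2608 and 2125 CPM after PhenDC3.

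The ratio of the sum of complex IV to that of complex V, which does not depend on how libraries are scaled, was 0.397, 0.420 and 0.354 in the controls and 0.422, 0.470 and 0.437 after PhenDC3. All 3 PhenDC3 ratios were above all controls, but the lowest of them (0.4225, replicate 1) was close to the highest control (0.4198, replicate 2). The sum of complex IV includes Cox6b2, the member that rose, at 58.6 and 44.5 CPM in these samples. Without Cox6b2 the order of these ratios would turn and the groups would overlap. The ratios of complex I to complex V (0.534, 0.550 and 0.495 against 0.524, 0.571 and 0.554) and of complex II to complex V (0.110, 0.0954 and 0.113 against 0.101, 0.0952 and 0.111) overlapped. No p was computed for these sums, and the differences between complexes were not tested. As a share of all raw counts, the members took 1.44%, 1.64% and 1.352% of the control libraries and 1.33%, 1.42% and 1.18% of the PhenDC3 libraries, which overlap. The scaling factors were 0.922 to 0.987 in the controls and 1.04 to 1.07 after PhenDC3.

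**Figure D4:**
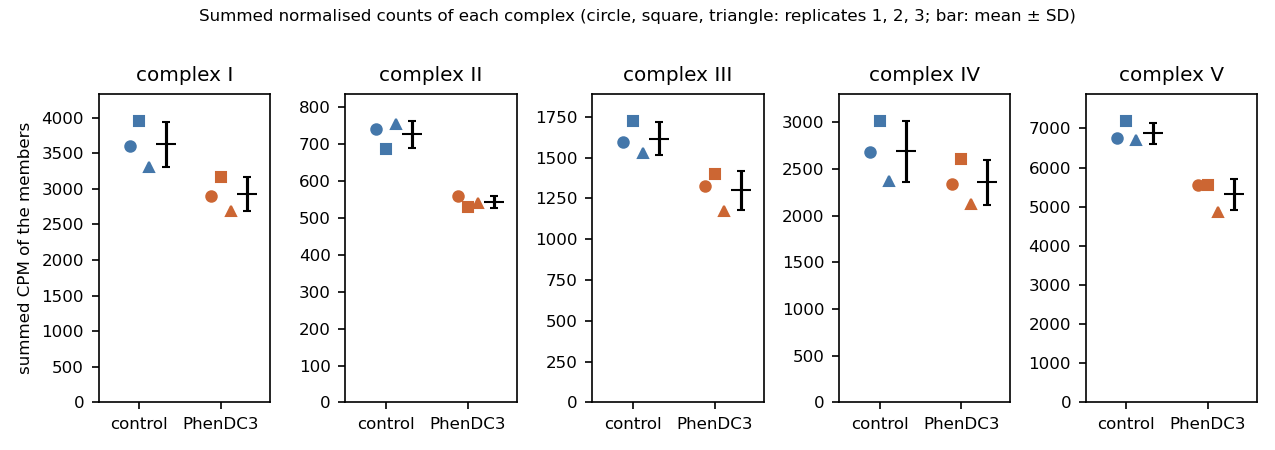
Summed scaled CPM of the members of each complex in each sample (points, replicates 1, 2 and 3 as circle, square and triangle), with the mean and SD of each group beside them; axes start at 0. The groups are apart in complexes I, II, III and V and overlap in complex IV.

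Per kilobase of exon, which allows levels of different genes to be compared, Atp5b had the highest mean level of the members in the controls (1065 CPM per kb), followed by Cox6c (714), Cox4i1 (707) and Cox6b1 (612). The lowest were Cox4i2 (1.81), Atp5s (3.20) and Ndufa4l2 (3.70). The members that fell were spread over most of this range, from Cox4i2 to Atp5a1 (563 CPM per kb in the controls and 433 after PhenDC3).

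Several subunits have a second gene that is used in particular tissues or conditions, and these are given beside their common forms. Cox6b2, the testis form of the subunit that faces cytochrome c, stood at 43.5, 44.5 and 28.9 CPM in the controls and at 58.6, 87.2 and 61.8 CPM after PhenDC3. It was the only member that rose, every PhenDC3 sample was above every control, and the log2 fold change was 0.83 ± 0.20 (adjusted p = 0.012). Its share of the counts of Cox6b2 and Cox6b1 together was 12.2%, 13.4% and 9.89% in the controls and 17.7%, 24.1% and 20.2% after PhenDC3.

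Ndufa4l2, known as a target of hypoxia-inducible factor, stood at 2.90, 3.19 and 4.58 CPM in the controls and at 0.590, 1.00 and 0.799 CPM after PhenDC3, on 70 to 106 and 17 to 24 counts. Its log2 fold change was -2.16 ± 0.30 (adjusted p = 8.7e-04), and its share of Ndufa4l2 plus Ndufa4 was 0.934%, 1.10% and 1.88% and then 0.225%, 0.354% and 0.312%. Cox4i2, the lung form of Cox4 and likewise known to respond to low oxygen, stood at 1.27, 1.55 and 1.12 CPM and then at 0.624, 0.585 and 0.399 CPM (-1.28 ± 0.32, adjusted p = 0.013). Its share of Cox4i2 plus Cox4i1 was 0.218%, 0.264% and 0.247% and then 0.123%, 0.103% and 0.0860%. As stated above, the membership of these 2 genes rested on the controls, so that their direction is no separate support.

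Cox7a1, the heart and muscle form of Cox7a, stood at 12.4, 12.6 and 10.8 CPM and at 15.4, 13.7 and 9.98 CPM, with overlap (0.13 ± 0.18, adjusted p = 0.61). Its share of Cox7a1 plus Cox7a2 was 4.06%, 4.16% and 3.87% and then 6.08%, 5.09% and 4.23%. The log2 ratio to the common form differed between the groups by -1.21 for Cox4i2 and -2.08 for Ndufa4l2, which are given with no p because the choice of these genes rested on the controls. It differed by 0.96 for Cox6b2 and 0.35 for Cox7a1, with no overlap in either. Cox6b2 and Cox7a1 each had an exact permutation p of 0.1 (two-sided), the smallest that 3 against 3 samples can give, and 0.15 adjusted over the 6 pairs examined. That adjustment also took in the pairs of Cox4i2 and Ndufa4l2, so 0.15 is too low for the others. The ratios of Atp5g1 and Atp5g2 to Atp5g3 differed by 0.15 and 0.13, with overlap (exact permutation p = 0.5 for each).

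**Figure D5:**
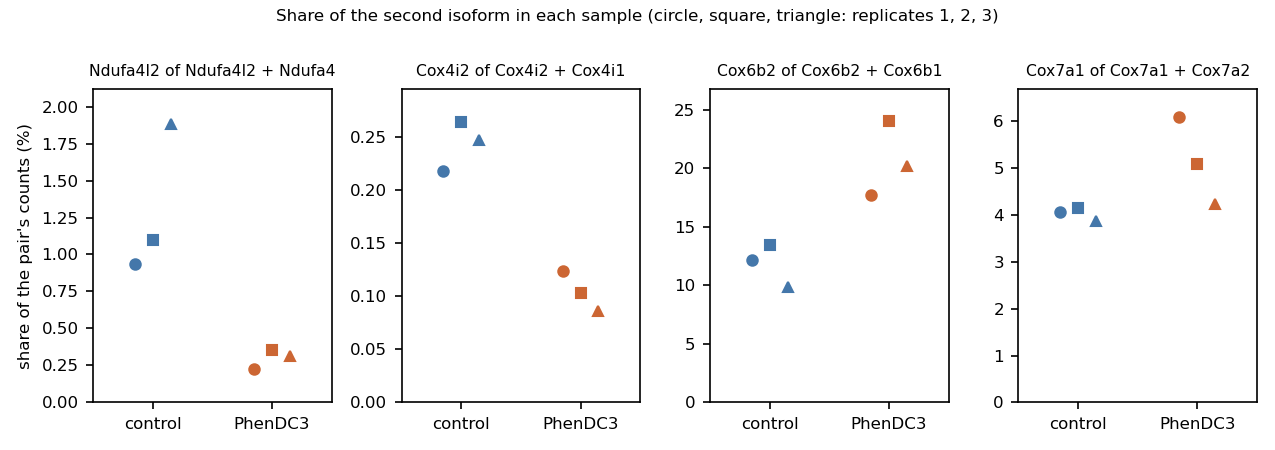
Share (%) of the second isoform in the summed counts of each pair of genes in each sample, with replicates 1, 2 and 3 as circle, square and triangle; axes start at 0. The share of Cox6b2 is 9.89% to 13.4% in the controls and 17.7% to 24.1% after PhenDC3, while those of Ndufa4l2 and Cox4i2 are lower after PhenDC3 in all samples.

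The 5 matched genes that were not members were Ndufs5, Cox8b, Cox6a2, Cox7b2 and Cox8c. Ndufs5, an accessory subunit of complex I, and Cox8b had 0 counts in all 6 libraries, which allows up to 0.102 to 0.135 CPM a library by counting error alone, and Cox6a2, a muscle form, had 2 counts in 1 PhenDC3 library and 0 elsewhere. Ndufs5 is a standing subunit of the complex, and the cause of its count of 0 was not tested. Cox7b2 (0.303 to 0.796 CPM in the controls and 0.418 to 1.31 CPM after PhenDC3) and Cox8c (0.476 to 0.729 and 0.399 to 0.520 CPM) did not pass the test.

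Exons of 9 members overlapped exons of a gene on the opposite strand, which matters where reads are counted without strand. The overlap reached 10% of the exon length in 4 of them (Ndufa13, Atp5j, Ndufb11 and Uqcrc2), and none of these 4 was called. Processed pseudogenes of several members exist in the mouse genome, and how the counting shared reads with them was not tested.

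Genes that build or surround the complexes were examined as lists. Their counts stand beside the 18.7% of all genes tested that fell and the 18% that rose. Among genes outside the members with at least 30 CPM in the controls, 44.2% to 47.8% fell in the length ranges of up to 1500 bases. The part of exon length in these lists was not tested. Of the assembly factors, 8 of 15 for complex I fell and none rose (median log2 fold change -0.51). By size, they were led by Ecsit (-0.90 ± 0.11, adjusted p = 3.9e-04), which acts in assembly of the membrane arm, Nubpl (-0.82, adjusted p = 0.0070), which delivers iron-sulfur clusters, the methyltransferase Ndufaf7 (-0.66, adjusted p = 0.0022), Foxred1 (-0.56), Ndufaf5 (-0.56) and Ndufaf2 (-0.53). For complex III, 3 of 5 fell, namely Lyrm7 (-0.91, adjusted p = 0.023), Uqcc2 (-0.74, adjusted p = 0.0024) and Bcs1l (-0.48, adjusted p = 0.013), which inserts the Rieske protein. For complex IV, 8 of 20 fell, led by Coa6 (-0.85, adjusted p = 0.0065), Surf1 (-0.73, adjusted p = 0.0042), Fastkd2 (-0.72), Cox10 (-0.67, adjusted p = 0.0031), which makes haem for the enzyme, Cox20 (-0.61) and Cox19 (-0.39). For complex II, 1 of 2 fell (Sdhaf2, -0.36, adjusted p = 0.046). None did with library totals alone, with no filter on low counts or without PhenDC3 replicate 1, 2 or 3 or control replicate 1 or 2. For complex V, 0 of 3 listed factors passed the test. Of 10 further subunits, electron carriers and partner proteins that the symbol rule missed, 2 fell, a share near the 18.7% of all genes tested. Both are partners of ATP synthase and not structural subunits, namely its inhibitor Atpif1 (-0.59, adjusted p = 0.0053) and 1110001J03Rik (-0.87, adjusted p = 0.015), a former symbol of the assembly factor Fmc1.

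Of 77 proteins of the mitochondrial ribosome, which translates the subunits encoded in mitochondrial DNA, 50 fell and none rose (median -0.44), where 18.7% and 18% of all genes tested did so. The lowest were Mrpl52 (-1.27), Mrpl34 (-1.27), Mrpl57 (-1.13), Mrps12 (-1.08), Mrpl36 (-1.06) and Mrpl12 (-0.89). With scaling by library totals alone 24 fell, and 28 did without PhenDC3 replicate 1 and 29 without PhenDC3 replicate 3, with medians of -0.29, -0.47 and -0.42. In these fits 12.1%, 11.4% and 13.2% of all genes tested fell. The mitochondrially encoded subunits themselves were not analysed here.

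In the tricarboxylic acid cycle, 7 of 14 genes fell and 1 rose (median -0.31). Ogdh, of the oxoglutarate dehydrogenase complex, fell from 435 to 260 CPM (-0.74 ± 0.13, adjusted p = 0.0025). The succinyl-CoA ligase subunits Suclg1 (-0.55, adjusted p = 0.0058) and Suclg2 (-0.52, adjusted p = 0.0039), fumarase Fh1 (-0.55, adjusted p = 0.0043) and Idh3a (-0.52, adjusted p = 0.0053), of the NAD-linked isocitrate dehydrogenase, also fell, while Idh2, the NADP-linked isocitrate dehydrogenase, rose from 72.7 to 125.5 CPM (0.79 ± 0.19, adjusted p = 0.013), although no gene of this list rose without control replicate 1.

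Of 12 genes for the entry of pyruvate, 6 fell and 1 rose (median -0.35). Pdk1, a kinase that holds pyruvate dehydrogenase inactive, fell from 263 to 53.0 CPM (-2.31 ± 0.12, adjusted p = 2.6e-05), and its relative Pdk4 rose from 9.55 to 13.4 CPM (0.49 ± 0.14, adjusted p = 0.028), although no gene of this list rose without control replicate 1 or without PhenDC3 replicate 1, 2 or 3. The phosphatase Pdp1 (-0.79, adjusted p = 0.0035), which has the opposite action to the kinases, and Pdk3 (-0.51, adjusted p = 0.015) fell. Pdhb and Dlat, parts of the dehydrogenase itself, fell by 0.38 and 0.40 on the log2 scale (adjusted p = 0.024 and 0.012). Among 19 genes for electron carriers and uncoupling, 2 fell and 2 rose (median -0.19), fewer than the 18.7% and 18% of all genes tested. With library totals alone 1 fell and 4 rose (median -0.04), where 12.1% of all genes tested fell and 3583 of 13972 rose. The calls named next are those of the main fit. Pdss1 (-0.79, adjusted p = 0.0092) and Coq5 (-0.41, adjusted p = 0.023), both of ubiquinone synthesis, fell. Those that rose were Etfdh (0.52, adjusted p = 0.014), which passes electrons from fat oxidation to ubiquinone, and Slc25a31 (2.02 to 4.45 CPM, adjusted p = 0.0023), an ATP and ADP carrier of the testis.

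Of 19 regulators of mitochondrial gene expression and biogenesis, 5 fell and 1 rose (median -0.28). Those that fell were Myc (50.2 to 10.3 CPM, log2 fold change -2.27 ± 0.23, adjusted p = 1.9e-04), the coactivator Ppargc1b (-1.44, adjusted p = 0.0029), Lin28a (-1.25, adjusted p = 0.0028), Tfb2m (-0.45, adjusted p = 0.019) and Polrmt (-0.43, adjusted p = 0.014), of which the last 2 serve transcription of mitochondrial DNA. Gabpa, the ETS factor whose core letters were searched above, rose from 174 to 229 CPM (0.39 ± 0.13, adjusted p = 0.045). No regulator rose under TMM scaling, without control replicate 1, 2 or 3 or without PhenDC3 replicate 1 or 3. The exons of Gabpa share bases with those of the member Atp5j.

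With scaling by library totals alone, 5 assembly factors of complex I, 2 of complex III, 5 of complex IV, 5 genes of the tricarboxylic acid cycle, 2 of pyruvate entry and 3 regulators fell, and 3 regulators rose. In that fit 12.1% of all genes tested fell and 3583 of 13972 rose. Without PhenDC3 replicate 1 the numbers of lower genes in the 6 lists were 5, 1, 5, 5, 3 and 4, where 11.4% of all genes tested fell. Without PhenDC3 replicate 3 they were 6, 3, 5, 5, 2 and 5, where 13.2% fell.

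Replication origins were counted at the same genes as a second readout. An origin here was a SNS-seq peak found in at least 2 replicates of a condition, and a gene had one where it lay within 2 kb of a RefSeq start site. Of the 79 members, 38 (48.1%) had an origin, against 64.8% of 13927 tested genes with a start site. Per sample, a peak lay there for 51.9%, 50.6% and 39.2% of members in the controls and for 49.4% and 31.6% after PhenDC3. The tested genes had 67.2%, 64.6% and 39.2%, and then 64.3% and 46.0%, so that the members were lower in 4 of the 5 samples and level in control replicate 3. No test was run on these shares.

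Members with an origin of the controls that both PhenDC3 samples shared (common) numbered 14 (17.7%, against 30.2% of tested genes). An origin of the controls with no overlapping peak in either PhenDC3 sample (suppressed) lay at 18 members (22.8% against 30.8%), and one of both PhenDC3 samples with no overlapping control peak (new) at 1 (1.27% against 6.16%). A gene could count in several classes, and the class describes a peak region and not the whole window. Uqcrh had a suppressed and a common origin. Atp5g3, the member with a new origin, also had peaks in control replicates 1 and 2 (4.92- and 4.77-fold) within 2 kb. Other origins, found in at least 2 samples of a condition but fitting none of these, lay at 19 members (24.1% against 31.7%), of which 12 fell. Of the 18 members with a suppressed origin, 4 fell in RNA and 14 did not pass the test, and of the 41 members without an origin 20 fell. Over all genes tested 18.7% fell, but that share was not counted within each class. These RNA counts by class therefore have no background of other genes, and no link between origin class and RNA was tested. Among the genes with printed promoters, Uqcr11 and Cox6b2 had a common origin, Cox6b2 with a peak in all 5 samples (4.14- to 6.70-fold over background), and Ndufs3, Sdhd and Atp5e had none.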

How the data were processed

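RNA-seq was measured in 3 control and 3 PhenDC3 samples of CGR8 cells and SNS-seq in 3 control and 2 PhenDC3 samples. The authors deposited raw read counts per gene for RNA-seq. The submitters' processing notes list TopHat2 2.1.1, HTSeq 0.6.1p1, cutadapt 1.9.1, Bowtie2, MACS2 2.1.0, SICER, edgeR 3.16.5 and DESeq2 1.14.1. For each SNS-seq sample the authors deposited peaks with a fold enrichment (ratio) and a −log10 p-value, and these columns were used only for the stronger-peak alternative and for the peak heights given. Their table of DESeq2 comparisons and a table of normalised pseudo-counts were not used. The genome annotation and strand setting behind the counts are not given in the sources used here.

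Genes were tested with edgeR 4.0.16 (R 4.3.3) by the robust quasi-likelihood test on the 6 samples, with RLE scaling and filterByExpr, and p-values were adjusted by Benjamini-Hochberg over 13972 genes. CPM are counts scaled to a common total of the RLE-scaled libraries. Isoform ratios used counts plus a pseudocount of 0.5 and an exact permutation test. The fit was tested on simulated counts with 200 changed genes, where the share of true changes recovered rose with their size and was low for changes under 2-fold. The data had far more calls (2518 higher and 2617 lower). The adjusted threshold was therefore less strict in the data, and the simulated recovery does not describe how many changes were found there. Exon lengths, start sites and promoters came from RefSeq (GRCm38.p6), matched by Entrez gene number, and the promoter table held 66 members. Intervals for a count of 0 take 3 counts and cover counting error only.

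Members, lists and tests were chosen with earlier results of these data known. Genes given with values were, by a fixed rule, the members with the largest called changes of each complex, the most abundant member of each, the core subunits, the isoform pairs and up to 6 called genes of each other list. Other names were chosen after their values were seen. Deviations of same-numbered control and PhenDC3 samples correlated at 0.0904, 0.544 and 0.405, and each sample correlated best with that of its own number. The labels do not say that a number marks a pair, and the main fit took no pairs. A fit with the number as a block called 56 members lower, against 39. Replicates differed by more than sampling noise. Alternatives were TMM scaling, DESeq2 1.42.0, other count filters, a replicate block, leaving out each sample and, added after seeing the data, scaling by library totals alone. The values of 1 member are not reported here by name; it stays in the counts and medians.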

Additional observations from a re-analysis of the deposited data

How the results depend on the processing

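The median log2 fold change of the members stayed below 0 under all 12 alternatives run, from -0.40 to -0.21. With scaling by library totals alone, added after seeing the data, it was -0.21 and 15 members were lower. Over all genes this scaling gave 3583 higher and 1688 lower calls, in place of 2518 and 2617. Leaving out 1 sample at a time gave 17 to 46 lower members and medians of -0.40 to -0.27, with 17 lower members without PhenDC3 replicate 1 and also 17 without PhenDC3 replicate 3. TMM scaling gave 40 lower members (19.3% of all genes lower), DESeq2 43 (15.5%), no filter 36 (13.9%), the CPM filter for all genes 38 (19.5%) and the replicate block 56 (26.4%). The block also called Atp5b (-0.28, adjusted p = 0.012), Cox6a1 (-0.38, adjusted p = 0.011) and Cox7a2 (-0.24, adjusted p = 0.024). The labels give the samples a shared number and do not say that it marks a pair. The prefixes of the count columns were consecutive within each number, and each sample correlated best with the sample of its own number. The members' median deviation from the group mean was 0.104 and 0.127 for the samples numbered 2 and -0.117 and -0.132 for those numbered 3. The 39 lower calls were all kept under TMM, DESeq2 and the block. Cox6b2 was the only higher member under all 12. Estimates turned positive with library totals alone for Ndufa4 (0.0911), Cox4i1 (0.0764), Ndufs1 (0.0604) and Cox6b1 (0.0274). Leaving out 1 sample, that of Ndufa4 ran from -0.164 to 0.0125 (without control replicate 1) and that of Cox7a1 from -0.0097 (without PhenDC3 replicate 1) to 0.286. None of these 5 genes was called in either fit. Of the single-gene values under the alternatives, 380 kept direction and call, 65 lost the call and 5 gained it. Members with an origin numbered 28 to 38 over the settings for peaks, window and samples. Depth limits most the low genes, such as Ndufa4l2 and Cox4i2.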
